A study of Mus musculus with 37 samples.

Results

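MicroRNAs of whole blood were compared between C57BL/6 mice of 15 months and of 13.5 months of age. Both groups belonged to the learning group of a longitudinal study of cognitive aging, in which all mice were habituated to a water maze at 12 months and trained in it again before each later blood sample. The mice were male wild types, housed singly, with no genetic alteration and no drug in either group, and blood came from the retro-orbital sinus. The comparison rests on 17 of the 37 blood libraries, 5 at 15 months and 12 at 13.5 months, and the other libraries, at 12 and 16.5 months, entered the filter, the scaling and the fit's estimate of the spread. With only the 17 libraries in all of these, 26 of 89 tested microRNAs differed, 3 of them higher and 23 lower. The study bled the same animals at several ages, but the labels do not name the mouse behind a library. Whether libraries of different ages, or of the same age, came from the same mouse is therefore unknown. The younger age has more libraries than the paper gives mice per group in its maze tests, so some of its libraries may share a mouse. The libraries were treated as separate samples, and the p-values measure the spread between libraries. The groups differed in age, in the number of training rounds completed and in the number of earlier bleedings, and these cannot be told apart.

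A microRNA is a short RNA, cut from a hairpin precursor, that guides the silencing complex to messenger RNAs. It pairs mainly through its seed, bases 2 to 8 counted from its 5′ end, so microRNAs with one seed form a family with overlapping targets. Either arm of a hairpin can be kept as the mature strand, called 5p or 3p after the side it comes from. Whole blood holds red cells, platelets, several kinds of white cell and plasma, each with microRNAs of its own, and red cells carry most of the material. miR-486 and miR-451a are the best known microRNAs of red cells, miR-223 of myeloid cells and miR-150 of mature lymphocytes.

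The count table lists 1915 mature microRNAs, of which 87 exceeded 100 reads in 50% or more of all libraries and were tested. Between 15 and 13.5 months, 34 of them (39.1%) differed with an adjusted p under 0.05 in edgeR's quasi-likelihood test with Benjamini-Hochberg adjustment over the 87. There were 14 higher at 15 months (16.1%) and 20 lower (23.0%), and these shares are the background against which the counts of each family are read below. Changes among the 34 ranged from 0.46 to 1.79 on the log2 scale in size. The group that rose was led by the miR-30 family, with miR-30a-5p, miR-30b-5p and miR-30c-5p, and by miR-144-5p, a product of the red cell transcript that also holds miR-451a. The group that fell was led by let-7i-5p, by miR-181a-5p and miR-181b-5p, and by miR-1198-5p, miR-107-3p and miR-103-3p. In 6 of the 87 (6.90%) the libraries of the 2 ages did not overlap on the scale described next. These were miR-30a-5p, miR-30b-5p and miR-30c-5p among those that rose and let-7i-5p, miR-181a-5p and let-7j among those that fell.

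Levels are CPM, the reads of a microRNA as a rate over the library total, scaled by edgeR's trimmed mean of M values (TMM), so they are relative to the other microRNAs of a library. The rows of miR-486a-5p and miR-486b-5p made up 88.6% to 97.0% of a library total over the 37 libraries, and because both rows hold the same count in each of them, their reads enter that total under both names. A very abundant microRNA can exceed its share of the reads on this scale where the TMM factor is low. The counts of higher and lower microRNAs depended on the scaling. With libraries scaled by their total count alone, 0 were higher and 22 lower, and the median log2 fold change of the 87 moved from 0.08 to -0.42. With scaling by the total outside miR-486, 12 were higher and 8 lower, around a median of 0.21, and with the authors' own library factors the split was 11 higher and 21 lower, around 0.01. The choice of the TMM reference among the 37 libraries gave 6 to 17 microRNAs that rose and 16 to 24 that fell. Below, a microRNA is said to have risen or fallen relative to the other microRNAs of blood. Statements that the CPM of the ages did or did not overlap hold for TMM scaling. Overlap under the other scalings was not tested. The TMM factors ranged from 0.31 to 1.83 at 13.5 months and from 0.47 to 1.04 at 15 months, so it can differ there.

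The mature sequences of the leading microRNAs and of the families they belong to are given first, because the families are defined by them. They are from RefSeq on GRCm38.p6, where 73 of the 87 tested microRNAs had an entry, and are written 5′ to 3′ with the seed in capitals. Among the miR-30 members, which share one seed, the bases differ only in the back part of the molecule.
miR-30a-5p: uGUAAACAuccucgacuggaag
miR-30c-5p: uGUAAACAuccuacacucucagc
miR-30e-5p: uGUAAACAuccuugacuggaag

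The let-7 members tested share another seed, and let-7j is set beside them because it carries a change inside it.
let-7i-5p: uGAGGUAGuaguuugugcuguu
let-7j: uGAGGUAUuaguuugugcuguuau
let-7c-5p: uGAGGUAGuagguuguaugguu
let-7d-5p: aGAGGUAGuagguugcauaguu
let-7a-5p: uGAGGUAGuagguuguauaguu
let-7f-5p: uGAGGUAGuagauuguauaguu
let-7g-5p: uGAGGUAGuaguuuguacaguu

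The miR-181 members are shown because their results divided although their sequences are close.
miR-181a-5p: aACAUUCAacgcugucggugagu
miR-181b-5p: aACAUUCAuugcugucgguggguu
miR-181d-5p: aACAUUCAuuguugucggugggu
miR-181c-5p: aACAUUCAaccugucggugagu

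miR-103-3p and miR-107-3p are almost one sequence, and the remaining microRNAs shown led the lists, belong to the families described or to the set the study selected.
miR-103-3p: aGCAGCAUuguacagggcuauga
miR-107-3p: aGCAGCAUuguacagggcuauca
miR-144-5p: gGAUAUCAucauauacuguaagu
miR-26a-5p: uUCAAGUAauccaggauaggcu
miR-425-5p: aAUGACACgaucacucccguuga
miR-1198-5p: uAUGUGUUccuggcuggcuugg
miR-15a-5p: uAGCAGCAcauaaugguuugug
miR-130b-3p: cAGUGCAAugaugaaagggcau
miR-192-5p: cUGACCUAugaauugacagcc

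Among the microRNAs that rose, the miR-30 family stood out by its number. This family is made in most tissues from several transcripts, and its members are among the abundant microRNAs of blood. All 5 members were tested, 4 were higher at 15 months and none was lower, although scaling by total count left none of the 4 calls and turned miR-30e-5p and miR-30d-5p negative. The median log2 fold change of the 5 was 0.78 beside 0.08 over the 87. miR-30a-5p lies at chr1:23272274-23272295 on the plus strand of GRCm38, outside other annotated genes. It had between 320.3 and 800.8 CPM, with a median of 456 CPM, in the 12 libraries of 13.5 months. At 15 months it had 1094, 1052, 996, 861 and 948 CPM in replicates 1 to 5. All 5 libraries of 15 months thus lay above all 12 of 13.5 months, and the mean rose from 505 ± 145 CPM (SD, n = 12) to 990.3 ± 90.9 CPM (SD, n = 5), a log2 fold change of 0.97 ± 0.17 (SE), or 1.96-fold (edgeR quasi-likelihood test, adjusted p = 3.84e-05).

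miR-30b-5p changed most within the family. It had from 10.04 to 60.7 CPM at 13.5 months, with a median of 31.8 CPM. At 15 months it had 65.3, 107, 71.8, 104 and 141 CPM in replicates 1 to 5. The lowest of the older libraries lay just above the highest of the younger ones, and the log2 fold change was 1.48 ± 0.27 (SE), or 2.78-fold (edgeR adjusted p = 6.41e-05). miR-30d-5p, which is made from the same primary transcript as miR-30b, overlapped between the ages, with 1184 ± 258 CPM (SD, n = 12) and 1411 ± 175 CPM (SD, n = 5), and a log2 fold change of 0.25 ± 0.13 (SE; edgeR adjusted p = 0.135), which was -0.30 under scaling by total count and below 0 also without replicate 5 of 15 months or without replicate 1 or 6 of 13.5 months.

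miR-30c-5p comes from 2 precursors, at chr4:120769584-120769606 in an intron of Nfyc, a subunit of a CCAAT-binding transcription factor, and at chr1:23291714-23291736 in an exon of the long noncoding RNA Gm27028. It had from 305 to 686 CPM at 13.5 months, with a median of 542 CPM. At 15 months it had 1054, 774, 1051, 844 and 826 CPM. The ages were again apart, with a log2 fold change of 0.78 ± 0.16 (SE; edgeR adjusted p = 2.4e-04). miR-30e-5p lies next to miR-30c-1 in the same intron of Nfyc, at chr4:120772660-120772681. It went from 155 ± 67.8 CPM (SD, n = 12) to 239 ± 43.6 CPM (SD, n = 5), a log2 fold change of 0.62 ± 0.21 (SE; edgeR adjusted p = 0.0195), with 9 of the 12 younger libraries below all of the older ones. This call was less stable than the others of the family. It was lost without any one of the 5 libraries of 15 months, without replicate 1 or 6 of 13.5 months, and with the factors of the authors' table, and under scaling by total count its sign turned, with a log2 fold change of -0.03.

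miR-144-5p had the largest fold change of all 87, though at a low level, with as few as 4 reads in a library. It lies at chr11:78073010-78073032, outside other annotated genes, on a transcript that GATA1 switches on in red cell precursors. It had from 1.39 to 13.4 CPM at 13.5 months, with a median of 4.40 CPM. At 15 months it had 14.6, 12.3, 34.9, 19.9 and 18.5 CPM. Only the highest younger library reached into the range of the older ones, and the log2 fold change was 1.79 ± 0.34 (SE), or 3.45-fold (edgeR adjusted p = 1.4e-04). miR-451a, from the same transcript, had 2770 ± 1922 CPM (SD, n = 12) and 5119 ± 3243 CPM (SD, n = 5), and its log2 fold change of 0.89 ± 0.45 (SE) did not pass (edgeR adjusted p = 0.125).

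miR-26a-5p and miR-425-5p completed the first 6 that rose. miR-26a-5p is encoded in introns of Ctdspl, at chr9:119031811-119031832, and of its relative Ctdsp2, at chr10:126995543-126995564, which both make small phosphatases of RNA polymerase II. It had from 490.3 to 1449.6 CPM at 13.5 months, with a median of 1071 CPM, and 1313, 1682, 1688, 1680.2 and 1758 CPM at 15 months. Except for replicate 1, the libraries of 15 months lay together above every younger one, with a log2 fold change of 0.60 ± 0.15 (SE; edgeR adjusted p = 0.00234). miR-26b-5p, which has the same seed, had a log2 fold change of 0.41 ± 0.33 (SE; edgeR adjusted p = 0.351). miR-425-5p, at chr9:108568789-108568811 in an exon of the long noncoding RNA 4833445I07Rik, had from 86.6 to 154 CPM, with a median of 127 CPM, at 13.5 months. At 15 months it had 173, 178, 151, 193 and 167 CPM, and 11 of the 12 younger libraries lay below all of these, for a log2 fold change of 0.46 ± 0.12 (SE; edgeR adjusted p = 0.00252). miR-191-5p, its neighbour on one transcript, had 7135 ± 2724 CPM (SD, n = 12) and 7332 ± 910.4 CPM (SD, n = 5), a log2 fold change of 0.04 ± 0.21 (SE; edgeR adjusted p = 0.871).

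**Figure D1:**
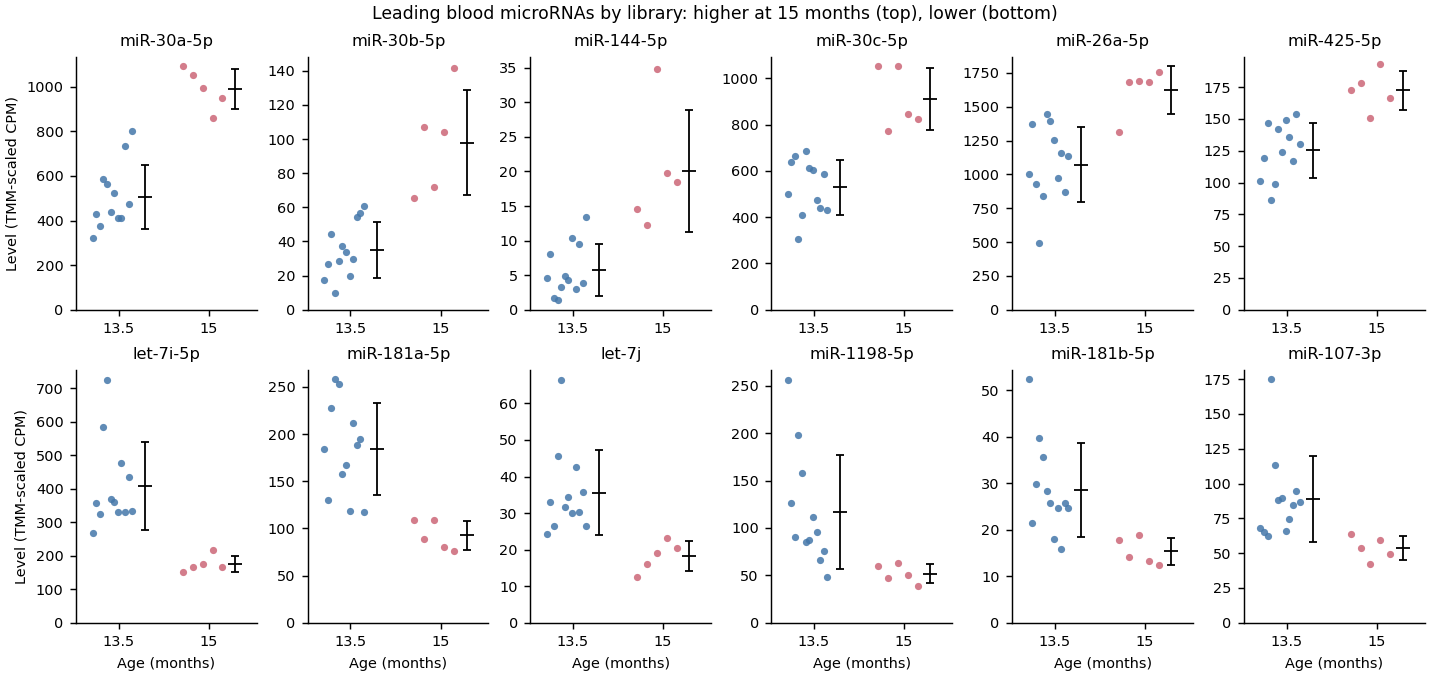
Levels of the 6 leading microRNAs that rose (top) and the 6 that fell (bottom), in TMM-scaled CPM with the axis from 0, against age. Each point is 1 library (12 at 13.5 months in blue, 5 at 15 months in red), and bars show the mean and SD. On this scale the ages do not overlap for miR-30a-5p, miR-30b-5p, miR-30c-5p, let-7i-5p, miR-181a-5p and let-7j.

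The other microRNAs that rose did so with overlapping libraries. miR-484, one of the few microRNAs made without the Drosha step, had a log2 fold change of 0.75 ± 0.20 (SE; edgeR adjusted p = 0.00252), and miR-192-5p, which p53 induces and which is abundant in liver and gut, one of 0.86 ± 0.24 (SE; adjusted p = 0.00517). miR-140-3p lies in an exon of Wwp2 and rose by 0.49 ± 0.14 (SE; edgeR adjusted p = 0.00586). miR-186-5p, in an intron of Zranb2, rose by 0.79 ± 0.24 (SE; edgeR adjusted p = 0.00982). For miR-99b-5p the log2 fold change was 0.86 ± 0.29, for miR-351-5p 0.59 ± 0.21 and for miR-19b-3p 0.85 ± 0.33 (SE; edgeR adjusted p = 0.0195, 0.0286 and 0.0382).

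Most calls of a rise depended on single libraries. Of the 14, 4 kept their call when each of the 17 libraries was left out in turn, namely miR-30a-5p, miR-30b-5p, miR-30c-5p and miR-144-5p. The call of miR-484 was lost without replicate 1 of 15 months, and those of miR-26a-5p, miR-99b-5p and miR-192-5p without replicate 2, 4 or 5 of 15 months. miR-26a-5p lost it also without replicate 1 of 13.5 months, miR-99b-5p without replicate 6, and miR-192-5p without either. miR-425-5p, miR-140-3p and miR-186-5p lost it without replicate 1, 2, 4 or 5 of 15 months or replicate 1 or 6 of 13.5 months, and miR-351-5p without these or replicate 3 of 15 months. miR-19b-3p lost it in 13 of the 17, all 5 libraries of 15 months and replicates 1, 2 and 4 to 9 of 13.5 months. Leaving out a library also moved the scaling, and with it the median log2 fold change of the 87, which lay between -0.26 and 0.08. Scaling by total count alone lost all 14 calls and turned the sign of miR-425-5p, miR-140-3p and miR-30e-5p.

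Among the microRNAs that fell, let-7i-5p had the smallest p of all 87. The let-7 family restrains growth and stemness genes such as Lin28 and Hmga2, and its level climbs as cells differentiate. let-7i-5p lies at chr10:122985698-122985719 on the minus strand, in an exon of the transcribed pseudogene D630033A02Rik. At 13.5 months it had from 266 to 726 CPM, with a median of 358 CPM, and at 15 months 151, 166, 176, 216 and 166 CPM. All 12 younger libraries lay above all 5 older ones, and the mean fell from 408 ± 131 CPM (SD, n = 12) to 175 ± 24.7 CPM (SD, n = 5). Its log2 fold change was -1.22 ± 0.18 (SE), with 2.33-fold more at 13.5 months (edgeR adjusted p = 3.93e-06).

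let-7j fell beside let-7i-5p. Its annotated sequence differs from let-7i-5p over their shared length by the one substitution G8U (let-7i-5p first, position from the 5′ end), which changes the seed, and it was listed at chr3:140028281-140028304. At 13.5 months it had from 24.3 to 66.4 CPM, with a median of 32.3 CPM, and at 15 months 12.5, 16.2, 19.1, 23.1 and 20.5 CPM. The ages were apart, with a log2 fold change of -0.95 ± 0.21 (SE; edgeR adjusted p = 5.5e-04). Its reads amounted to between 7.82% and 9.60% of those of let-7i-5p in the libraries of 13.5 months and to between 8.29% and 12.4% in those of 15 months, so the pair moved at a nearly fixed ratio. How many let-7j reads are let-7i-5p molecules misread at this base was not tested.

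Of the let-7 family by seed, 10 members were listed and 6 tested, of which 3 fell and none rose. Under TMM scaling with no factor for hidden confounders all 6 had a negative log2 fold change, while let-7f-5p was at 0.07 under scaling by the total outside miR-486 and between 0.06 and 0.36 with 1 to 3 such factors, estimated by RUVs, and let-7a-5p at 0.12 with 3 such factors. Their median was -0.63 beside 0.08 over the 87. let-7c-5p went from 193 ± 89.5 CPM (SD, n = 12) to 116 ± 27.8 CPM (SD, n = 5), a log2 fold change of -0.74 ± 0.25 (SE), and let-7d-5p from 180.5 ± 61.7 CPM (SD, n = 12) to 111 ± 25.2 CPM (SD, n = 5), one of -0.70 ± 0.26 (SE; edgeR adjusted p = 0.0195 and 0.0289). let-7d-5p lost its call without replicate 3 of 15 months. let-7a-5p, let-7g-5p and let-7f-5p had log2 fold changes of -0.55 ± 0.29, -0.38 ± 0.18 and -0.15 ± 0.25 (SE), with edgeR adjusted p of 0.131, 0.0869 and 0.652. let-7a-5p and let-7c-5p differ by A19G alone (let-7a-5p first), so reads that end before this base fit both, and the split between these members is uncertain.

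In the miR-181 family, miR-181a-5p and miR-181b-5p fell together. This family is high in lymphocyte precursors, where miR-181a tunes the sensitivity of the T-cell receptor, and in brain. miR-181a-5p comes from chr1:137966468-137966490, in an intron of the noncoding transcript Gm4258, and from chr2:38852741-38852763, antisense to an intron of Nr6a1. At 13.5 months it had from 118 to 259 CPM, with a median of 186 CPM, and at 15 months 109, 88.8, 109, 80.5 and 76.5 CPM. The ages did not overlap, and the mean fell from 184 ± 48.4 CPM (SD, n = 12) to 92.7 ± 15.4 CPM (SD, n = 5), a log2 fold change of -0.99 ± 0.17 (SE; edgeR adjusted p = 3.84e-05). miR-181b-5p, which follows miR-181a on both transcripts, had from 15.8 to 52.4 CPM at 13.5 months, with a median of 25.8 CPM, and 17.9, 14.2, 18.96, 13.3 and 12.4 CPM at 15 months. Its older libraries lay below 10 of the 12 younger ones, with a log2 fold change of -0.88 ± 0.20 (SE; edgeR adjusted p = 7.0e-04).

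The miR-181c and miR-181d pair, on a separate transcript within Nanos3 on chromosome 8, did not move as one. miR-181d-5p fell by 0.67 ± 0.18 (SE) on the log2 scale (edgeR adjusted p = 0.00341). miR-181c-5p had 26.5 ± 17.2 CPM (SD, n = 12) at 13.5 months and 34.5 ± 11.2 CPM (SD, n = 5) at 15 months, a log2 fold change of 0.37 ± 0.37 (SE; edgeR adjusted p = 0.439). This value turned negative, to -0.22, under scaling by total count, and to -0.05 without replicate 5 of 15 months, while with 2 RUVs factors it was 0.39 and passed (edgeR adjusted p = 0.0368), and its highest value over the alternatives was 0.88. By sequence, miR-181d-5p differs from miR-181b-5p over their shared length by C12U (miR-181b-5p first), whereas miR-181c-5p is closest to miR-181a-5p, from which it departs by the loss of 1 base. Of the 4 members, 3 fell and none rose without such factors, with a median log2 fold change of -0.78.

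miR-1198-5p, miR-107-3p and miR-103-3p also fell. miR-1198-5p, in an intron of the X-linked gene Gripap1 at chrX:7807142-7807163, had from 48.2 to 256 CPM at 13.5 months, with a median of 93.2 CPM, and 60.3, 47.1, 62.8, 50.6 and 38.2 CPM at 15 months. Of the 5 older libraries 2 lay below the lowest younger one, and 11 of the 12 younger libraries lay above all older ones, for a log2 fold change of -1.17 ± 0.26 (SE; edgeR adjusted p = 6.7e-04). miR-103-3p and miR-107-3p sit in introns of the pantothenate kinase genes, miR-107-3p in Pank1 (chr19:34820700-34820722) and miR-103-3p in Pank2 (chr2:131288103-131288125) and Pank3 (chr11:35782447-35782469), which encode the first enzyme of coenzyme A synthesis. miR-107-3p had from 62.4 to 175 CPM at 13.5 months, with a median of 85.6 CPM, and 63.7, 53.3, 42.3, 59.5 and 49.2 CPM at 15 months. All younger libraries except the lowest lay above all older ones, with a log2 fold change of -0.73 ± 0.18 (SE; edgeR adjusted p = 0.0016). Among the alternatives run on it, this call was lost with 3 RUVs factors only, at -0.23 (edgeR adjusted p = 0.204). For miR-103-3p the log2 fold change was -0.62 ± 0.16 (SE; edgeR adjusted p = 0.00234), and since the 2 differ by G22C alone (miR-103-3p first), one base before their end, their reads may not be fully separated.

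**Figure D2:**
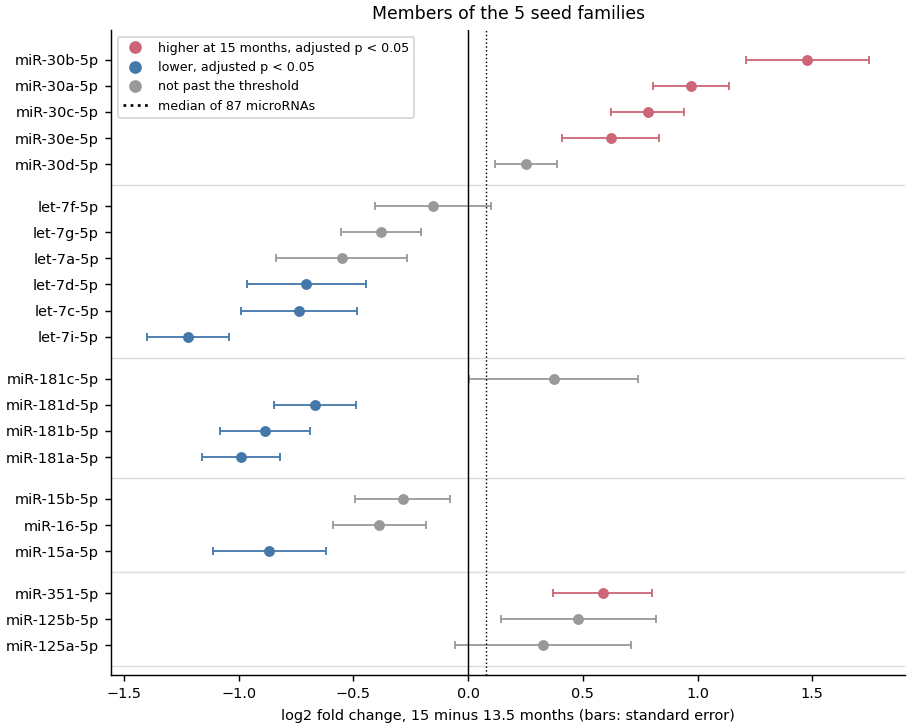
log2 fold change at 15 against 13.5 months for the tested members of the 5 seed families with 3 or more tested members and at least 1 call (miR-30, let-7, miR-181, miR-15/16 and miR-125, from top to bottom), with standard errors from the edgeR fit. Red and blue points passed the threshold as higher and lower, grey points did not, and the dotted line is the median of the 87. Under TMM scaling the 5 miR-30 members lie right of 0, with 4 called, and the 6 let-7 members left of it, with 3 called, whereas scaling by total count moves miR-30d-5p and miR-30e-5p below 0, scaling by the total outside miR-486 or any RUVs factors move let-7f-5p above it, and 3 RUVs factors move let-7a-5p above it.

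The miR-15/16 family represses cyclins and Bcl2, and 3 of its 6 listed members were tested. miR-15a-5p, from the Dleu2 transcript (chr14:61632075-61632096, in an intron), fell from 63.2 ± 22.1 CPM (SD, n = 12) to 34.6 ± 12.6 CPM (SD, n = 5), a log2 fold change of -0.87 ± 0.25 (SE; edgeR adjusted p = 0.00522). miR-16-5p, which is cut from the same transcript and from that of miR-15b, had one of -0.39 ± 0.20 and miR-15b-5p one of -0.29 ± 0.21 (SE; edgeR adjusted p = 0.133 and 0.290). The family of miR-125 and miR-351-5p gave 1 call of 3, the rise of miR-351-5p, beside log2 fold changes of 0.48 ± 0.34 for miR-125b-5p and 0.33 ± 0.38 for miR-125a-5p (SE; edgeR adjusted p = 0.285 and 0.524), both of which turned negative under scaling by total count or without replicate 1 of 15 months.

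Together, the 5 families held 21 of the 87 tested microRNAs and 12 of the 34 that changed. The remaining microRNAs that fell came from several transcripts. miR-378a-3p and miR-378c fell by 0.48 ± 0.14 and 0.51 ± 0.13 (SE) on the log2 scale, and miR-378c held between 31.6% and 42.8% of the reads of miR-378a-3p at 13.5 months and between 31.7% and 37.4% at 15 months. miR-320-3p, like miR-484 made without the Drosha step, fell by 0.89 ± 0.28 (SE) where miR-484 rose (edgeR adjusted p = 0.0117). miR-222-3p, a regulator of Kit, fell by 0.48 ± 0.16 (SE; edgeR adjusted p = 0.0193), and miR-652-3p and miR-532-5p fell by 0.48 ± 0.17 and 0.72 ± 0.27 (SE; edgeR adjusted p = 0.0286 and 0.0289), the last 2 calls being lost without replicate 3 of 15 months.

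Neighbours on one transcript did not always move alike. miR-92a-3p and miR-19b-3p are both cut from the miR-17 to miR-92a cluster, within Mir17hg on chromosome 14, and from its copy on the X chromosome. miR-92a-3p fell, with a log2 fold change of -1.24 ± 0.47 (SE; edgeR adjusted p = 0.0334), and miR-19b-3p rose. miR-92a-3p ranged from 5309 to 71270.0 CPM at 13.5 months and from 4380 to 19849 CPM at 15 months, and its call was lost without replicate 2 of 15 months or replicate 4 of 13.5 months. In the related cluster within Mcm7, miR-93-5p fell by 0.62 ± 0.24 (SE; edgeR adjusted p = 0.0331), a call lost without replicate 3 of 15 months or replicate 11 of 13.5 months. miR-25-3p, its neighbour, had 5747 ± 950.0 CPM (SD, n = 12) and 5583 ± 465 CPM (SD, n = 5), a log2 fold change of -0.04 ± 0.13 (SE; edgeR adjusted p = 0.809).

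Of the 20 microRNAs that fell, 15 kept their call when each of the 17 libraries was left out in turn, and the exceptions were let-7d-5p, miR-532-5p, miR-652-3p, miR-92a-3p and miR-93-5p, as given above. With scaling by the total outside miR-486 the calls of miR-103-3p, miR-378c, miR-378a-3p, miR-181d-5p, miR-15a-5p, miR-222-3p, let-7c-5p, miR-652-3p, miR-532-5p, let-7d-5p, miR-93-5p and miR-92a-3p were lost. With 3 RUVs factors for hidden confounders, 15 of the 34 calls were lost, those of miR-107-3p, miR-103-3p, miR-378a-3p, miR-378c, miR-320-3p, let-7c-5p, miR-652-3p, miR-532-5p and miR-92a-3p among the falls and of miR-26a-5p, miR-425-5p, miR-484, miR-186-5p, miR-30e-5p and miR-351-5p among the rises. With 1 such factor 0 of the 34 were lost, and with 2 factors 1, miR-99b-5p. let-7i-5p, miR-181a-5p, let-7j, miR-1198-5p, miR-181b-5p and miR-130b-3p kept theirs under all 33 alternatives of scaling, filter, samples, tool and hidden factors. Over these, the log2 fold change of let-7i-5p lay between -1.68 and -0.79 and that of miR-181a-5p between -1.49 and -0.66. miR-30a-5p and miR-30b-5p kept their call under 32 of the 33, all except scaling by total count, with log2 fold changes between 0.41 and 1.16 and between 0.90 and 1.84.

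**Figure D3:**
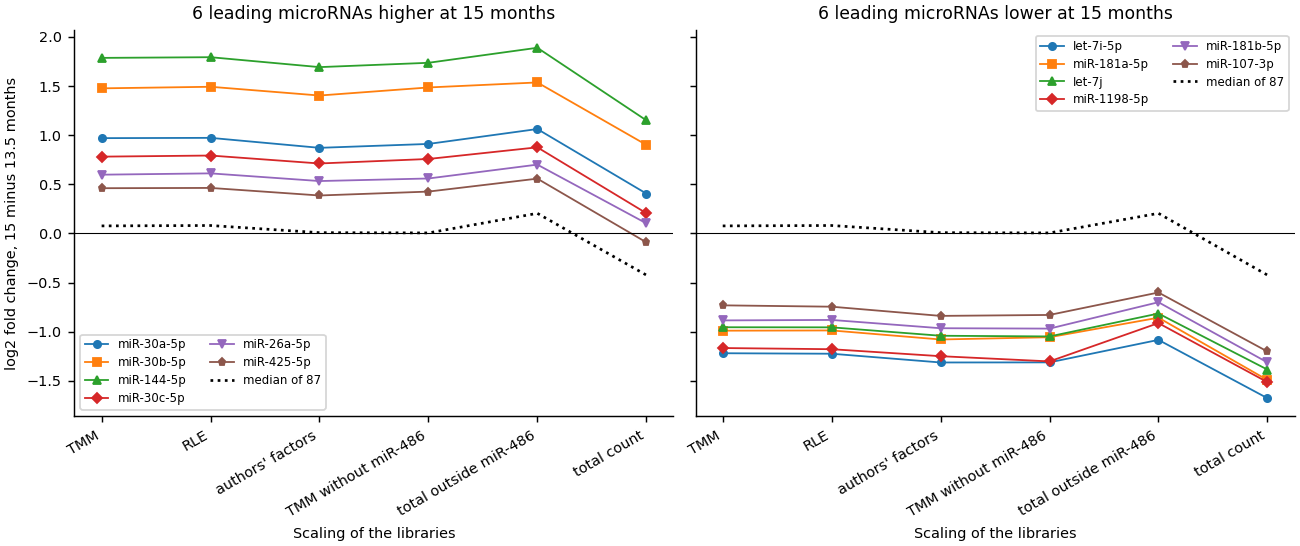
log2 fold change at 15 against 13.5 months (vertical axis) of the 6 leading microRNAs that rose (left) and the 6 that fell (right) under 6 scalings of the libraries (horizontal axis), with the median of the 87 as a dotted line. The lines shift with the median, which drops to -0.42 under scaling by total count, where miR-425-5p turns to -0.09 while the other microRNAs shown keep their sign.

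The ratio of the arms of one precursor does not depend on the scaling, because both are counted in the same library. Both arms were tested for 6 precursors, with miR-486a and miR-486b taken as one since their counts were identical. The log2 ratio of 5p to 3p reads, with 0.5 added to each, was compared with a two-sided exact permutation test, and 2 of the 6 (33.3%) passed after adjustment. In miR-30a the ratio ranged from 4.10 to 5.63 at 13.5 months, with a median of 4.83. At 15 months it was 6.38, 5.84, 6.25, 5.73 and 5.87. The ages did not overlap, and the ratio was higher by 1.21 at 15 months (exact permutation test, p = 3.2e-04, the smallest this design can give, adjusted p = 0.00194).

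The ratio of miR-30a reuses the reads of miR-30a-5p, so it is no separate measurement of its rise. The sister strand, miR-30a-3p, had as few as 16 reads in a library. Its level was 17.8 ± 4.31 CPM (SD, n = 12) and 15.3 ± 2.31 CPM (SD, n = 5), with a log2 fold change of -0.22 ± 0.19 (SE; edgeR adjusted p = 0.393). In miR-130b the ratio went from -1.73 ± 0.62 (SD, n = 12) to -0.79 ± 0.49 (SD, n = 5), higher by 0.94 (exact permutation test, p = 0.00517, adjusted p = 0.0155), with 9 of the 12 younger libraries below all older ones. Its adjusted p was 0.0527 without replicate 1 or without replicate 3 of 15 months (exact permutation test). Here the 3p strand fell, as described next, and miR-130b-5p had a log2 fold change of 0.25 ± 0.34 (SE; edgeR adjusted p = 0.576). The ratios of miR-486, let-7d, miR-151 and miR-423 differed by 1.43, -0.58, 0.33 and -0.30, with adjusted p of 0.191, 0.191, 0.554 and 0.568 (exact permutation test).

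**Figure D4:**
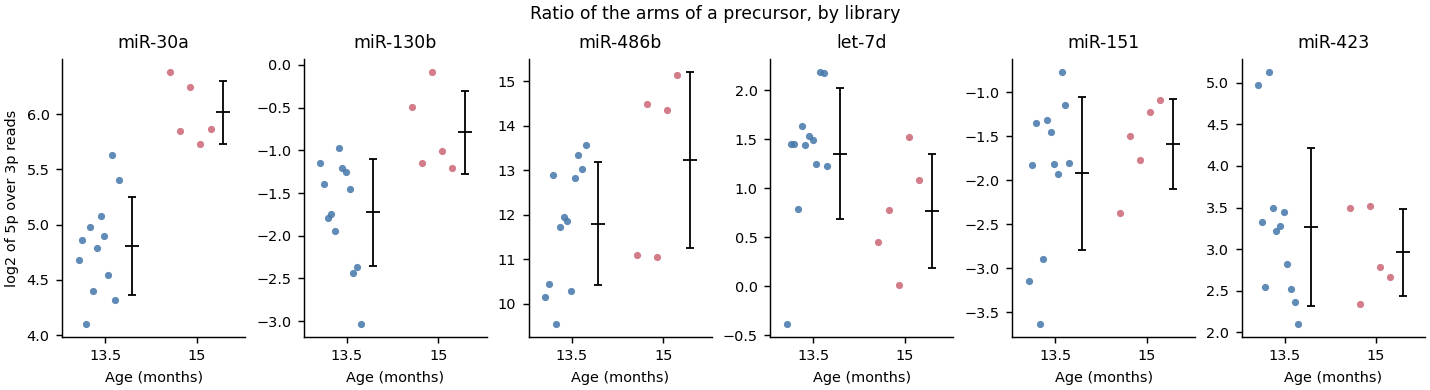
log2 of the 5p over the 3p reads (vertical axis, a separate range in each panel) of the 6 precursors with both arms tested, against age, with 1 point per library and bars for the mean and SD. The ages are apart for miR-30a, where the 5 libraries of 15 months lie between 5.73 and 6.38 above a highest value of 5.63 at 13.5 months, and overlap in the other 5.

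The study followed 7 microRNAs that it chose partly on blood of these mice, so their directions here are not separate evidence. Of these, 6 were tested and 1 rose and 2 fell over this interval. miR-192-5p rose from 440.1 ± 218 CPM (SD, n = 12) to 798 ± 253 CPM (SD, n = 5), with 9 of the 12 younger libraries below all older ones. miR-130b-3p, a member of the miR-130 family at chr16:17124071-17124092 in an intron of 2610318N02Rik, fell from 51.7 ± 10.6 CPM (SD, n = 12) to 32.0 ± 8.92 CPM (SD, n = 5), a log2 fold change of -0.69 ± 0.18 (SE; edgeR adjusted p = 0.00252). miR-181a-5p and miR-30a-3p were described above.

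miR-146a-5p, a brake on inflammatory signalling through Irak1 and Traf6, ranged from 19.4 to 98.5 CPM at 13.5 months, with a median of 35.6 CPM, and had 23.3, 54.3, 31.5, 30.9 and 58.1 CPM at 15 months. All of its older libraries lay within the range of the younger ones, with a log2 fold change of -0.17 ± 0.37 (SE; edgeR adjusted p = 0.747). Among the alternatives run on it, it passed with 3 RUVs factors only, at -0.78 (edgeR adjusted p = 0.0468). miR-148a-3p ranged from 29.6 to 254 CPM at 13.5 months, with a median of 99.2 CPM, and had 57.8, 82.3, 51.9, 90.3 and 111 CPM at 15 months. Its log2 fold change was -0.45 ± 0.40 (SE; edgeR adjusted p = 0.393), again with all older libraries inside the younger range. It passed with 1 RUVs factor only, at -0.65 (edgeR adjusted p = 0.0171), and had -0.13 and -0.10, not past the threshold, with 2 and 3 factors. let-7b-5p had too few reads for the filter used here. It passed with a filter of more than 1 read, under which 32 of 323 microRNAs differed (9.91%), 10 of them (4.24%) among the 236 that the main filter left out, and its log2 fold change was then -1.03 ± 0.30 (SE; edgeR adjusted p = 0.0176).

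Markers of the cells and tissues that blood RNA can come from were followed beside these results. In bulk blood, fewer cells of a type and less RNA per cell cannot be told apart. Of the 7 red cell microRNAs listed, 6 were tested, with 1 rise (miR-144-5p), 1 fall (miR-92a-3p) and 4 that did not pass. Their summed level without miR-486 ranged from 16963 to 75782 CPM at 13.5 months and from 15685 to 23987 CPM at 15 months. At 13.5 months this sum was mostly miR-92a-3p, with a median of 13724 CPM beside 22085 CPM for the sum. At 15 months it was not, with a median of 5947 CPM for miR-92a-3p beside 17448.5 CPM for the sum. The median of miR-451a went the other way, from 2093 CPM at 13.5 months to 5774 CPM at 15 months. miR-486a-5p itself had a log2 fold change of 0.35 ± 0.32 (SE; edgeR adjusted p = 0.393). The part of red cell content in the rise of miR-144-5p was not tested.

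Of 4 myeloid markers, 3 were tested and none passed, with log2 fold changes of 0.41 ± 0.29 for miR-223-3p, 0.43 ± 0.19 for miR-142a-5p and 0.33 ± 0.35 for miR-21a-5p (SE; edgeR adjusted p = 0.283, 0.0677 and 0.472). Their summed level ranged from 972 to 3345 CPM at 13.5 months and from 2218 to 3124 CPM at 15 months. The 2 lymphoid markers tested of 4, miR-150-5p and miR-342-3p, did not pass, and the summed level ranged from 76.1 to 558 CPM and from 119 to 527 CPM. For platelets and endothelium, 1 of 3 was tested and did not pass, with sums of 5.31 to 39.0 CPM and 15.0 to 42.3 CPM. Lymphoid and myeloid sums thus overlapped between the ages, but each was mostly a single microRNA. At 13.5 months miR-142a-5p had a median of 1804 CPM beside 1917 CPM for the myeloid sum. There miR-150-5p had a median of 199 CPM beside 209 CPM for the lymphoid sum. All 5 libraries of 15 months lay above the 13.5-month median of miR-142a-5p. The part of these cells in the changes of miR-181a-5p and miR-30a-5p was not tested.

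Of 4 liver and gut markers, miR-192-5p rose, and miR-194-5p, from the same transcript, had a log2 fold change of 0.51 ± 0.21 (SE; edgeR adjusted p = 0.0529). miR-215-5p, left out by the main filter, rose by 1.02 ± 0.24 (SE; edgeR adjusted p = 0.00333) with a filter of more than 1 read. The liver-defining miR-122-5p was at 0 in 8 of the 12 libraries of 13.5 months and in 4 of the 5 of 15 months. Of 4 muscle markers none was tested, and miR-1a-3p was at 0 in all 17 libraries. miR-206-3p was at 0 in 11 libraries of 13.5 months and 5 of 15 months, and miR-133b-3p in 10 and in 2. miR-133a-3p, in contrast, had reads in every library, from 1.21 to 13.4 CPM at 13.5 months and from 1.09 to 7.87 CPM at 15 months. Of the 3 neural markers, miR-128-3p alone was tested, with a log2 fold change of 0.08 ± 0.19 (SE; edgeR adjusted p = 0.765), and miR-124-3p was at 0 in 9 and in 4 libraries.

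The ages were apart in a smaller part of the variation between libraries. In a principal component analysis of the 87 microRNAs on log2(CPM + 1) values, the first component held 62.3% of the variance and the ages overlapped on it, with miR-486a-3p, miR-486b-3p, miR-423-5p and miR-451a having the largest weights. On the second, with 17.1%, the libraries of 13.5 months lay between -4.54 and 1.33 and those of 15 months between 1.97 and 4.72. Its largest weights were 0.30 for miR-144-5p, 0.24 for miR-501-3p, -0.22 for let-7i-5p and 0.21 for miR-30b-5p. Except for miR-501-3p, these were called above from the same libraries, so the second component is no separate evidence. The median coefficient of variation over the 87 was 25.3% in the 5 older libraries against 38.2% in the 12 younger ones. The coefficient was lower at 15 months in 72 of the 87 and in 29 of the 34 that changed. These microRNAs share the same libraries, so they are not separate cases. Replicate 1 of 13.5 months lay furthest out on the first component, at 10.7. Whether the spread differed with age was not tested.

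**Figure D5:**
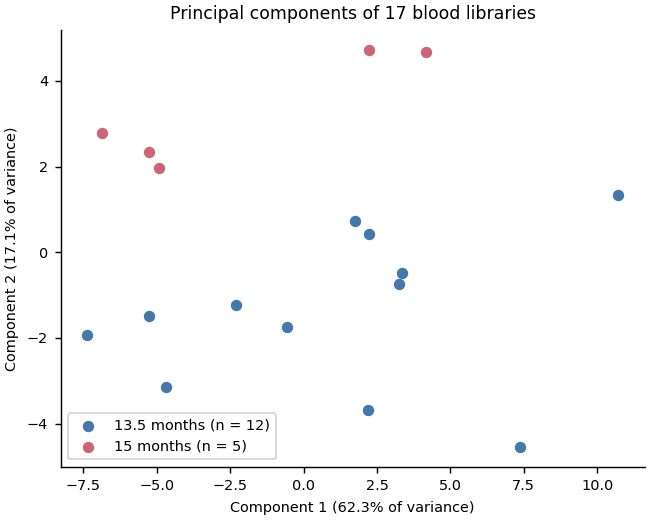
The first and second principal components of the 17 libraries over the 87 tested microRNAs, with 12 libraries of 13.5 months in blue and 5 of 15 months in red. The ages overlap on the first component and are apart on the second, where the 5 libraries of 15 months lie between 1.97 and 4.72.

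The mean at 13.5 months often lay beyond the means of the other ages. In 32 of the 34 microRNAs that changed, the mean at 13.5 months was above or below the means of all 3 other ages, 12, 15 and 16.5 months. The same was true of 35 of the 53 that did not pass and so of 67 of all 87 (77.0%). Because the highest and the lowest of 4 means always belong to some age, part of this share would arise for any age. Whether the libraries of 13.5 months differed from those of 12 and 16.5 months was not tested. The 34 were called for differing from the libraries of 13.5 months, so their share is no separate evidence. The labels give no date or batch for the libraries, so a difference between the libraries of 13.5 months and the rest in handling cannot be told apart from age.

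Depth did not divide the ages. The total count over the first rows ranged from 3735106 to 15462085 at 13.5 months and from 5080826 to 20268095 at 15 months, and the reads outside miR-486 from 162621 to 993255 and from 150316 to 1115965. Replicate 1 of each age had the fewest of the latter, and without both libraries 28 microRNAs differed, 6 of them higher and 22 lower.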

How the data were processed

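Small RNA libraries of total blood were made with the TruSeq Small RNA kit and sequenced as 50-base single reads. Per the paper's methods, the authors trimmed adapters, dropped short reads, mapped the rest to mm10 with the default settings of miRDeep2's mapper and counted them on miRBase precursors with no mismatch allowed, and FastQC 0.11.5 is named in the submitters' processing notes. The authors deposited raw read counts, 2241 rows for 1915 mature microRNAs, and, in a second table, a normalized signal in which each library's counts are multiplied by a constant. The first row of each of the 115 microRNAs with several rows was used, because the normalized table of 337 microRNAs was built from it, and 0 columns were left out. The paper describes summed rows, and the sum was an alternative.

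Groups are the ages in the labels. One edgeR 4.0.16 quasi-likelihood fit (R 4.3.3) took all 37 libraries, with age as factor, TMM scaling, library size from the first rows and no factor for hidden confounders, and the contrast was 15 minus 13.5 months. microRNAs with more than 100 reads in 50% of libraries were kept, the threshold was an adjusted p of 0.05, and the SE was taken as the absolute log2 fold change over the root of F. The authors' DESeq2 with RUVs factors was tried as alternatives (DESeq2 1.42.0 without factors, and 1 to 3 factors in edgeR from the published formula), as were limma 3.58.1 voom, other scalings and filters, the replicate block and single libraries left out. Arm ratios were tested in scipy 1.17.1. Scripts were tested on simulated data.

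The members, families, markers and tests were chosen with earlier results of these data known. Every microRNA past the threshold is named, and the 6 of smallest p in each direction are given by library. Added are the 7 microRNAs the study selected, the markers and the arm ratios. All members of seed families with 3 or more tested members and a call are added too. Genomic positions are RefSeq's on GRCm38.p6, the same build as mm10, and gene annotation is GENCODE vM21. The depth limits what can be tested. The biological coefficient of variation was 0.405 over the 87 microRNAs. Counts of PCR copies are not separate molecules, so the spread between libraries, not the read number, carries the error. No pair of libraries had identical counts.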

Additional observations from a re-analysis of the deposited data

Results flagged for a closer look

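With 5 libraries at 15 months, 63 values were examined for a library far from the others by Dixon's ratio, and 3 passed its critical value of 0.71, where chance alone flags about 1 in 20. miR-26a-5p had 1313 CPM in replicate 1 of 15 months beside 1680.2 to 1758 CPM in the other 4, and replicate 1 is the shallowest library of that age. miR-140-3p had 668 CPM in replicate 3 beside 1064 to 1162 CPM. miR-30e-5p had 314.5 CPM in replicate 3 beside 206 to 235.5 CPM, so this library stood high for the one and low for the other. All 3 microRNAs are among those that rose. Without the library that stood apart, miR-30e-5p lost its call and the other two kept theirs. The cause was not tested.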

How the results depend on the processing

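The count of 34 microRNAs became 22 with scaling by total count, 20 with scaling by the total outside miR-486, 18 without a filter and 52 with 2 RUVs factors. The 14 that rose became 0 with total count, 5 without a filter, 3 with only the 17 libraries of both ages, 9 with repeated rows summed, 27 with 1 or 2 RUVs factors, 6 without the 2 shallowest libraries (chosen after seeing the data) and 6 with the least favourable TMM reference. The 20 that fell became 8 with the total outside miR-486 and 13 without a filter. With one library left out, from 25 to 37 differed, from 5 to 17 rose and from 16 to 25 fell. Without a filter, 960 microRNAs were tested. For the other settings the cause was not tested.

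Under scaling by total count the log2 fold change reversed to -0.0897 for miR-425-5p, -0.0435 for miR-140-3p and -0.0323 for miR-30e-5p.

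The replicate numbers did not pair the libraries, since the correlation of same-numbered deviations exceeded 0.1 in 1 of 5 pairs (mean -0.24). With the replicate block, 38 differed, 20 higher and 18 lower. For the arm ratios the 2 calls became 0 with same-numbered libraries paired (replicate block), where 5 pairs allow no p under 0.0625, 4 with both arms over 10 reads, and from 1 to 2 with one library left out. Depth limits the microRNAs near 100 reads most.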

Other observations

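With a filter of more than 1 read in 50% of libraries, 323 microRNAs were tested and 32 differed (9.91%). Of the 236 below the filter used above, 10 passed (4.24%), 6 higher and 4 lower at 15 months, and they are named here because they passed. miR-221-3p, the neighbour of miR-222-3p, fell by 1.46 ± 0.28 (SE) on the log2 scale (edgeR adjusted p = 5.2e-04), from 15.7 ± 6.32 CPM (SD, n = 12) to 6.17 ± 1.02 CPM (SD, n = 5). miR-215-5p, which shares most of its sequence with miR-192-5p, rose by 1.02 ± 0.24 (SE; edgeR adjusted p = 0.00333), from 7.58 ± 1.91 CPM (SD, n = 12) to 16.7 ± 4.77 CPM (SD, n = 5), with all 5 older libraries above the highest younger one. let-7b-5p, among those the study selected, fell by 1.03 ± 0.30 (SE; edgeR adjusted p = 0.0176). miR-17-3p and miR-375-3p, the latter a pancreatic islet and gut endocrine microRNA, fell by 0.97 ± 0.26 and 1.21 ± 0.41 (SE). miR-148b-5p, miR-345-5p, miR-5100, miR-326-3p and miR-1839-3p rose by 1.09 ± 0.28, 0.95 ± 0.26, 0.94 ± 0.28, 0.69 ± 0.21 and 1.29 ± 0.43 (SE), with edgeR adjusted p between 0.00752 and 0.048. Except for miR-221-3p, miR-17-3p and let-7b-5p at 13.5 months and miR-215-5p at 15 months, the median library of either age held fewer than 100 reads of each.

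With both arms required to have more than 10 reads, 34 precursors could be compared, and 4 had a changed arm ratio (11.8%, two-sided exact permutation test). Besides miR-30a and miR-130b, the log2 ratio of 5p to 3p fell by 0.94 in let-7i (exact permutation test, adjusted p = 0.0147) and by 1.003 in miR-15b (adjusted p = 0.0147). let-7i-5p thus fell also against its own 3p strand, in a ratio that reuses the let-7i-5p reads.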
